A study of Arabidopsis thaliana with 3 samples.

Results

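The comparison described here sets a library of wounded leaf explants at 2 days (treatment label "2 d wounding") against a library of control leaves at 2 days ("2 d control"), gene by gene, over all 33323 nuclear loci among the 33602 genes listed. The 279 organelle loci were at 0 in every library and were left out. A library labelled as the control at the start, called T0 here, completes the series of 3 libraries, and its values stand beside the others for reference. The plants were Arabidopsis thaliana of the Col-0 accession, and all 3 libraries came from the first pair of rosette leaves, recorded at 12 days after sowing, with no transgene or mutation named. Plants grew on 1/2 MS medium under long days, and explants, which are detached leaf pieces, were kept on B5 medium free of carbohydrate. The series holds no separate library for detachment or medium, so their effects and that of wounding cannot be told apart here. The series' design text mentions a wound site and a leaf residue, and no label assigns a library to either. With 1 library a group there was no p-value and no estimate of biological spread, so every interval below covers counting error only.

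A cut leaf faces open wounds, lost water and no supply from the root, and in Arabidopsis such a leaf can in time form new roots at the cut. Wounded plant cells release fragments and peptides that receptor kinases at the cell surface detect, and WRKY transcription factors are among the regulators that act after them. Their known targets include secreted proteins such as chitinases, peroxidases and protease inhibitors, while genes of cell expansion are commonly held back during defence.

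Of the 33323 nuclear loci, 20109 reached 30 counts summed over the 3 libraries and were compared, and 13214 did not. The call of a gene as higher or lower asked that the exact 95% interval of its ratio of scaled counts, explant over 2-day control, lie wholly beyond 2-fold. By this rule 2019 genes (10.0% of those compared) were higher in the explant and 1355 (6.74%) lower, and 16735 were neither. Beyond 4-fold the counts were 974 genes (4.84%) and 369 genes (1.83%). The median log2 ratio of all compared genes was -0.00, so a gene group is read below against that median and against the 2 shares of 10.0% and 6.74%. Many calls rested on a gene with few reads on one side: 448 of the higher genes had at most 5 counts in the 2-day control, and 86 of the lower genes at most 5 in the explant. At least 30 counts in the explant stood against 0 in the 2-day control for 134 genes, and the opposite held for 9. A gene with counts in the explant alone passed the filter through that library and could only be called higher. Among the genes below this holds for MYB36, WRKY9, AT1G51840, NAS2 and PXMT1, besides others.

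Protein-coding genes made up 19500 of the compared loci, with 1996 higher (10.2%) and 1278 lower (6.55%). Loci annotated as pseudogenes leaned the other way, with 19 of 331 higher (5.74%) and 40 lower (12.1%). None of 79 long noncoding RNAs was higher and 8 were lower, and among 37 loci annotated as microRNAs 1 was higher and 12 lower. Deposited counts totalled 46713257 in the explant against 45097732 in the 2-day control, with 43099934 at T0.

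**Figure D1:**
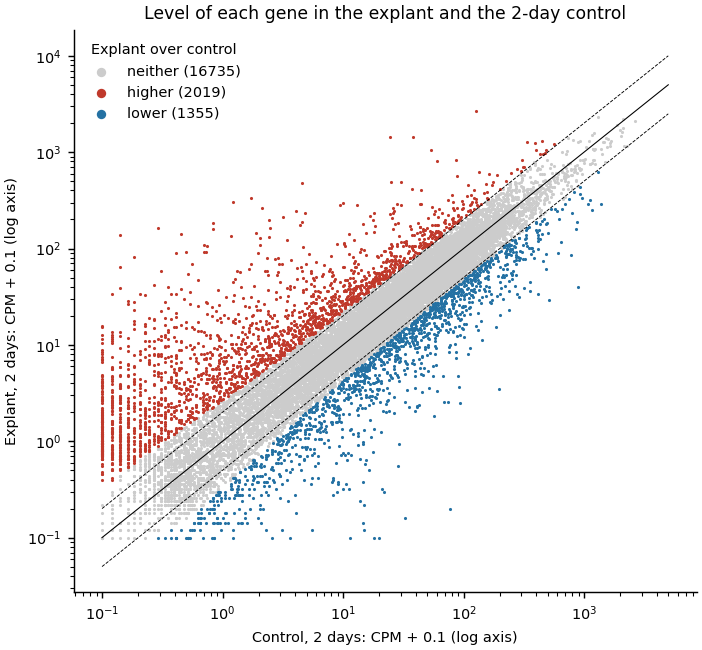
Level of each of the 20109 compared genes in the explant (vertical axis) and the 2-day control (horizontal axis), both in CPM (counts scaled to a common library total) plus the constant named on the axis, on log scales. Red points are the 2019 genes called higher, blue the 1355 called lower and grey the 16735 called neither; the solid line marks equal levels and the dashed lines 2-fold. Red points reach farther from the line than blue ones, above all at low control levels.

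Leaf tissue was evident in each library, and the markers of cell types differed in level between them. The 4 mesophyll markers summed to 3109 CPM in the explant against 4554 in the 2-day control, with 9843 at T0, and 0 of 4 were called. The 4 markers of phloem companion cells summed to 419.5 CPM in the explant against 751 in the 2-day control, with 901 at T0, and 2 were called lower. The 7 xylem markers summed to 22.8 CPM in the explant against 44.3 in the 2-day control, with 132 at T0, and 1 was called lower. The 3 procambium markers went the other way, at 91.6 CPM in the explant against 76.1 in the 2-day control, with 74.1 at T0, and 1 was called higher. The 3 root hair markers were at 0 in both 2-day libraries, and root cap markers summed to at most 0.0398 CPM in any library. The 2 matched markers of root epidermis and cortex summed to 69.1 CPM in the explant against 29.9 in the 2-day control, with 58.1 at T0, and 1 was called higher and 1 lower. The 4 endodermis markers summed to 11.4 CPM in the explant against 15.6 in the 2-day control, with 9.58 at T0. MYB36, with 36 counts in the explant and none in either control, was called higher, the only call open to it. In bulk tissue fewer cells of a type and less RNA per cell cannot be told apart, and the part of these marker differences in the gene calls was not tested.

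**Figure D2:**
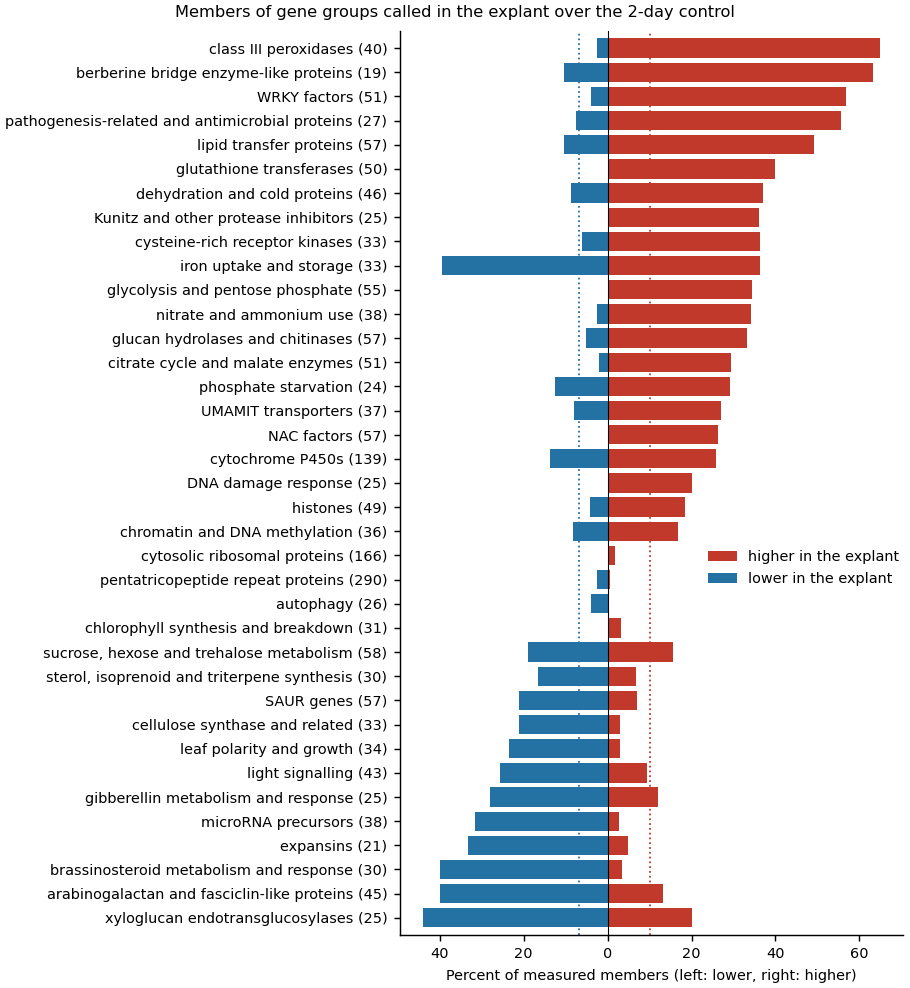
Share of the measured members of gene groups (number of members in brackets) called higher, red to the right, or lower, blue to the left, in the explant over the 2-day control. Dotted lines mark the shares over all compared genes, 10.0% higher and 6.74% lower. Class III peroxidases, berberine bridge enzyme-like proteins and WRKY factors stand at the top, and xyloglucan endotransglucosylases, arabinogalactan proteins and brassinosteroid genes at the bottom.

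Several genes without an assigned symbol stood farthest beyond the rule, and several encode secreted or surface proteins. AT5G48430, of the aspartyl protease family, had counts of 3238 (explant), 2 (2-day control) and 1 (T0), so it was close to absent from both controls. Its ratio was 1538-fold, with a 95% interval of 425 to 12705 that the 2 control counts leave wide. AT4G16260, a glycosyl hydrolase, had 7076 counts in the explant against 17 in the 2-day control, with 1 at T0, and was 395-fold higher (95% interval 247 to 679). AT2G45220, of the pectin methylesterase group, had counts of 15358 (explant), 54 (2-day control) and 4 (T0) and was 270.2-fold higher. The explant alone was high for each of these. KTI1, a Kunitz trypsin inhibitor, had 2954 counts in the explant against 10 in the 2-day control, with 2 at T0, and was 281-fold higher (95% interval 152 to 586). UPI, a protease inhibitor of the potato type, had 4566 counts in the explant against 29 in the 2-day control, with 3 at T0, and was 149.6-fold higher (95% interval 104 to 224). CHX17, a cation/proton exchanger, had 5335 counts in the explant against 31 in the 2-day control, with 3 at T0, and was 163-fold higher (95% interval 115 to 241). AT4G32950, a PP2C protein phosphatase, had counts of 762 (explant), 0 (2-day control) and 46 (T0) and was at least 241-fold higher, where the bound replaces the empty control by 3 counts, so that T0 and not the 2-day control held the nearest value. The lipase GLL22 had 568 counts in the explant against 1 in the 2-day control, with 1 at T0, and was 539.6-fold higher (95% interval 96.5 to 21348).

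At the other end lay short secreted peptides, glutaredoxins and loci that the reference does not characterise. AT1G13609, a defensin-like peptide, had 5 counts in the explant against 3671 in the 2-day control, with 144 at T0, and was 773-fold lower (95% interval 331 to 2382). Its neighbour AT1G13608 had 0 counts in the explant against 118 in the 2-day control, with 1 at T0, and was at least 41.4-fold lower. AT1G13607 had counts of 0 (explant), 34 (2-day control) and 0 (T0) and was at least 11.9-fold lower. All 3 were highest in the 2-day control. AT2G14247, not characterised in the reference, had 3 counts in the explant against 1553 in the 2-day control, with 116 at T0, and was 545-fold lower (95% interval 186 to 2645). AT1G47400, which has no symbol in the reference, had counts of 6 (explant), 705 (2-day control) and 38 (T0) and was 124-fold lower. AT2G30766 shares a stretch of 332 bases with the overlapping gene CYP71A13, so its count is uncertain. It had 11 counts in the explant against 998 in the 2-day control, with 99 at T0, and was 95.5-fold lower. The 2-day control was the highest library for each of them. AT1G06360, of the fatty acid desaturase family, had 7 counts in the explant against 651 in the 2-day control, with 1669 at T0, and was 97.9-fold lower (95% interval 47.2 to 244), with T0 the highest library. Of 22 glutaredoxins, small redox proteins grouped after their values were seen, 1 was higher and 5 were lower (median log2 ratio -0.18). ROXY2 had 1 count in the explant against 143 in the 2-day control, with 188 at T0, and was 151-fold lower (95% interval 26.6 to 5987). AT3G21460 had 1 count in the explant against 261 in the 2-day control, with 168 at T0, and was 275-fold lower (95% interval 48.9 to 10893). AT1G06830 had 20 counts in the explant against 779 in the 2-day control, with 499 at T0, and was 41.0-fold lower (95% interval 26.4 to 67.5). Both controls exceeded the explant for these 3, whereas AT1G64500, with counts of 2463 (explant), 906 (2-day control) and 380 (T0), was 2.58-fold higher. AT2G47880 shared 36.0% of its exon bases with another gene model, and with 10 counts in the explant against 1042 in the 2-day control, with 1145 at T0 it was 109.7-fold lower (95% interval 59.4 to 229).

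**Figure D3:**
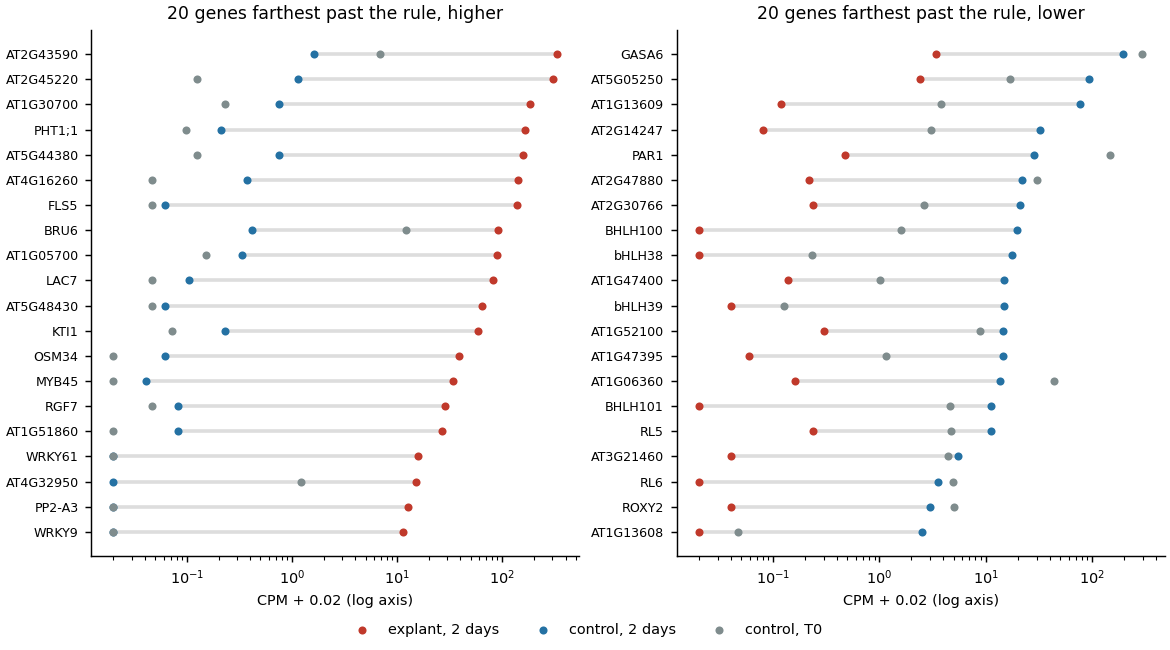
CPM plus the constant named on the axis, on a log scale, of the 20 genes whose nearer interval bound lay farthest beyond 1 in each direction. NAC1, CEP, extensin and root founder genes were passed over. Red points are the explant, blue the 2-day control and grey T0; in the left panel the explant is the highest library for every gene, and in the right panel the lowest.

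Antimicrobial and wall-degrading proteins were among the groups with the most higher members. Of 27 pathogenesis-related and antimicrobial genes 15 were higher and 2 lower, and the median log2 ratio was 2.44. PR4, a chitin-binding protein, had 24541 counts in the explant against 1184 in the 2-day control, with 178 at T0, and was 19.7-fold higher (95% interval 18.6 to 20.9). Plant defensins of the jasmonate and ethylene type moved far: PDF1.3 had 7326 counts in the explant against 86 in the 2-day control, with 8 at T0, and was 80.9-fold higher (95% interval 65.4 to 101). PDF1.2c with counts of 1697 (explant), 15 (2-day control) and 1 (T0) was 107-fold higher. Among 57 glucan hydrolases and chitinases, enzymes that cut plant or fungal wall polymers, 19 were higher and 3 lower, and the median log2 ratio was only 0.21. The chitinase AT2G43590 had 16613 counts in the explant against 77 in the 2-day control, with 259 at T0, and was 205-fold higher (95% interval 164 to 259.8). EP3, with 75.0% of its exon bases in another gene model as well, had counts of 1879 (explant), 108 (2-day control) and 69 (T0) and was 16.5-fold higher. CHIA had 759 counts in the explant against 22 in the 2-day control, with 1 at T0, and was 32.8-fold higher. Each was highest in the explant, and AT2G43590 was higher at T0 than in the 2-day control.

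Small cysteine-rich peptides were divided. Of 17 measured genes in the family of short peptides and cysteine-rich defensins, 9 were higher and 4 were lower (median log2 ratio 2.44). In the group of thionins and defensin-like proteins, put together after values were seen, 1 of 12 was higher and 7 were lower (median log2 ratio -2.67). THI2.1, a thionin, had 361 counts in the explant against 4151 in the 2-day control, with 9 at T0, and was 12.1-fold lower (95% interval 10.9 to 13.5), so it was highest in the 2-day control. The thionin AT1G66100 had 179 counts in the explant against 4334 in the 2-day control, with 6587 at T0, and was 25.5-fold lower, high in both controls. AT3G05730, a defensin-like gene, had counts of 1816 (explant), 275 (2-day control) and 5063 (T0) and was 6.27-fold higher, although T0 exceeded both. Among 25 protease inhibitors, which block digestive and defence proteases, 9 were higher and 0 lower, including AT2G38870 with 9810 counts in the explant against 841 in the 2-day control, with 276 at T0.

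Class III peroxidases, secreted enzymes that use hydrogen peroxide at the wall, had the largest share of higher members among the groups drawn. Of 40 measured, 26 were higher and 1 lower, and the median log2 ratio was 3.80, or 3.3 with empty libraries set to 3 counts. Their summed share of all counts was 0.502% in the explant against 0.165% in the 2-day control, with 0.138% at T0. AT5G64120 had 53099 counts in the explant against 2537 in the 2-day control, with 373 at T0, and was 19.9-fold higher (95% interval 19.1 to 20.7). PRXCB had 40926 counts in the explant against 2855 in the 2-day control, with 2776 at T0, and was 13.6-fold higher. Prx37 had 13231 counts in the explant against 97 in the 2-day control, with 6 at T0, and was 129.6-fold higher (95% interval 106 to 159.9). AT2G18980 had 342 counts in the explant against 0 in the 2-day control, with 5 at T0, and was at least 108-fold higher. The exception was AT3G32980 with counts of 155 (explant), 431 (2-day control) and 284 (T0), 2.93-fold lower. AT5G64100 and AT5G64110 adjoin AT5G64120 on chromosome 5 and were 324-fold higher and 40.2-fold higher (95% interval 13.5 to 198).

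Berberine bridge enzyme-like proteins, secreted flavin oxidases some of which are known to oxidise wall oligosaccharides, held 12 higher and 2 lower among 19 measured. This group was added after values were seen, and its median log2 ratio was 3.03, or 2.1 at the floor of 3 counts. AT1G30700 had 9274 counts in the explant against 35 in the 2-day control, with 8 at T0, and was 252-fold higher (95% interval 181 to 362). AT5G44380 had 7973 counts in the explant against 35 in the 2-day control, with 4 at T0, and was 216-fold higher (95% interval 155 to 311). AT1G30720 had 2338 counts in the explant against 25 in the 2-day control, with 230 at T0, and was 88.8-fold higher, with T0 above the 2-day control. AT2G34810 went the other way, with counts of 1019 (explant), 3371 (2-day control) and 431 (T0), and was 3.48-fold lower.

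Lipid transfer proteins, small secreted proteins that bind lipids, numbered 28 higher and 6 lower among 57 (median log2 ratio 1.87). Their share of all counts was 0.603% in the explant against 0.388% in the 2-day control, with 0.329% at T0. A run of these genes on chromosome 4 stood out in level. AT4G12490 had 72763 counts in the explant against 1156 in the 2-day control, with 144 at T0, and was 59.8-fold higher (95% interval 56.4 to 63.4), although 35.9% of its exon bases lie in another gene model as well. Per length it reached 1844 CPM per kb in the explant against 30.8 in the 2-day control, with 4.83 at T0. EARLI1 had counts of 41590 (explant), 4130 (2-day control) and 37 (T0) and was 9.57-fold higher. AT4G12500 had 24043 counts in the explant against 211 in the 2-day control, with 19 at T0, and was 108-fold higher (95% interval 94.5 to 125). AZI1, known for a part in systemic immunity, had 14719 counts in the explant against 470 in the 2-day control, with 163 at T0, and was 29.7-fold higher (95% interval 27.1 to 32.7). All 4 were highest in the explant and lowest at T0. Lower members were present too: AT2G10940 had 12688 counts in the explant against 55016 in the 2-day control, with 54043 at T0, and was 4.56-fold lower. AT2G45180 had counts of 18295 (explant), 44157 (2-day control) and 35009 (T0) and was 2.54-fold lower.

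Lectins of the jacalin type, which bind sugars, were split between 8 higher and 7 lower of 22. AT5G49850 had 329 counts in the explant against 0 in the 2-day control, with 7 at T0, and was at least 104-fold higher. JAL23 had 817 counts in the explant against 5005 in the 2-day control, with 2 at T0, and was 6.45-fold lower (95% interval 5.99 to 6.95). JAL22 had 9 counts in the explant against 109 in the 2-day control, with 48 at T0, and was 12.7-fold lower.

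Receptor families were higher in part, with shares that ranged from well above the background to near it. Cysteine-rich receptor kinases counted 12 higher and 2 lower of 33 (median log2 ratio 0.74), lectin receptor kinases 14 and 3 of 58, and receptor-like proteins, which lack a kinase, 9 and 4 of 46. Leucine-rich repeat receptor kinases counted 21 higher and 13 lower of 122 (median -0.14), and NLR immune receptors, which act inside the cell, 15 and 3 of 113 (median -0.16). Most members of these last families were therefore called neither.

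CRK30 had counts of 2511 (explant), 281 (2-day control) and 55 (T0) and was 8.49-fold higher. CRK27 had 723 counts in the explant against 23 in the 2-day control, with 6 at T0, and was 29.9-fold higher. CRK4 had counts of 122 (explant), 966 (2-day control) and 589 (T0) and was 8.34-fold lower. PROPEP3, the precursor of a danger peptide that wounded cells release, had 299 counts in the explant against 4 in the 2-day control, with 6 at T0, and was 71.0-fold higher (95% interval 27.4 to 262). EFR, the receptor of a bacterial peptide, had counts of 1350 (explant), 502 (2-day control) and 768 (T0) and was 2.55-fold higher, but it holds a near-identical stretch with another gene. BIK1, a cytoplasmic kinase that acts after such receptors, had 3262 counts in the explant against 1418 in the 2-day control, with 1438 at T0, and was 2.19-fold higher. RLP30 had counts of 1109 (explant), 257 (2-day control) and 110 (T0) and was 4.10-fold higher. Across the list of pattern receptors and danger peptides, 6 of 38 were higher and 2 lower, so most of the known machinery was called neither. THE1, a kinase that monitors wall integrity, had 2242 counts in the explant against 16959 in the 2-day control, with 8523 at T0, and was 7.96-fold lower (95% interval 7.62 to 8.33), so the 2-day control was the highest library.

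Of the NLR genes, AT4G11170 had counts of 400 (explant), 9 (2-day control) and 0 (T0) and was 42.2-fold higher. AT4G19530 had 4727 counts in the explant against 17928 in the 2-day control, with 11541 at T0, and was 3.99-fold lower, the reverse order. In the salicylate and effector-triggered list 4 of 27 were higher and 3 lower. UGT76B1, which glucosylates immune regulators, had 1508 counts in the explant against 18 in the 2-day control, with 0 at T0, and was 79.6-fold higher (95% interval 50.2 to 135). FMO1, an enzyme of systemic resistance, had 108 counts in the explant against 8 in the 2-day control, with 0 at T0, and was 12.8-fold higher. PR1, the usual salicylate marker, had only counts of 9 (explant), 37 (2-day control) and 0 (T0) and was 4.33-fold lower. WRKY70 had 1752 counts in the explant against 3619 in the 2-day control, with 2092 at T0, and was 2.17-fold lower. PR5 with counts of 725 (explant), 90 (2-day control) and 190 (T0) was 7.65-fold higher, so the classical markers differed in direction. RBOHD, the oxidase behind the superoxide burst, had 11269 counts in the explant against 4965 in the 2-day control, with 4107 at T0, and was 2.16-fold higher.

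The longest run of neighbouring higher genes lay among the leucine-rich repeat kinases of chromosome 1. From AT1G51820 to AT1G51915, 8 consecutive measured protein-coding genes were all higher, 5 of them with the same kinase description. AT1G51850 had 6785 counts in the explant against 51 in the 2-day control, with 1 at T0, and was 126-fold higher (95% interval 96.0 to 169.9). AT1G51860 had 1335 counts in the explant against 3 in the 2-day control, with 0 at T0, and was 423-fold higher (95% interval 144 to 2052). AT1G51890 had 3448 counts in the explant against 22 in the 2-day control, with 2 at T0, and was 149-fold higher (95% interval 98.2 to 238). Each had at most 2 counts at T0. AT1G51820 had 2700 counts in the explant against 20 in the 2-day control, with 18 at T0, and was 128-fold higher (95% interval 82.9 to 210.3). AT1G51840 had counts of 356 (explant), 0 (2-day control) and 0 (T0) and was at least 113-fold higher. AT1G51830 was 328-fold higher but shares a near-identical stretch with another gene, so its count is uncertain. IOS1 lies close by and is a kinase known to act with pattern receptors; it had 9933 counts in the explant against 112 in the 2-day control, with 69 at T0, and was 84.2-fold higher (95% interval 69.9 to 102).

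The 250 bases before the start of these genes were read because WRKY factors bind the W-box, whose core is TTGAC. The core was searched on both strands, so that GTCAA counts as well. AT1G51850 and AT1G51860 held 4 copies each, AT1G51820 and AT1G51890 held 2, AT1G51830 held 1 and AT1G51840 held 0. The windows of 3 of them follow, picked after their values were seen, from RefSeq on TAIR10.1 and 5' to 3' on the minus strand, from which these genes are read, with each core in capitals.
AT1G51850, chr1:19256928-19257177: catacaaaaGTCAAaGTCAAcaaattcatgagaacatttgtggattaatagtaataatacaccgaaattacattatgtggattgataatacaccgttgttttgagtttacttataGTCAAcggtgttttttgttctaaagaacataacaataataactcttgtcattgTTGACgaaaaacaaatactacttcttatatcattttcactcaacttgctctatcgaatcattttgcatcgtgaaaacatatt
AT1G51860, chr1:19261795-19262044: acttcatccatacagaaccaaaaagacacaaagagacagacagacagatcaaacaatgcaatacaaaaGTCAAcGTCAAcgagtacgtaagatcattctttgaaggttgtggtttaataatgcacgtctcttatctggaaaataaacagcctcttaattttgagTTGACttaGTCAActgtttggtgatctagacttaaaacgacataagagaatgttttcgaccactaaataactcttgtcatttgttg
AT1G51890, chr1:19278799-19279048: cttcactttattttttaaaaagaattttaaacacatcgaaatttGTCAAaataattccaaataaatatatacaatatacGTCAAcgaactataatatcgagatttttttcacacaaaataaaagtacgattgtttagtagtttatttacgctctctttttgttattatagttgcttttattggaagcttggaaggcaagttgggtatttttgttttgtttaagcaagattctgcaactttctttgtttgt
In windows of this length the core occurred in 54.9% of 2019 higher genes, 44.0% of 1352 lower genes and 44.8% of all 20087 with a window. At least 2 copies were present in 23.7% of higher, 13.1% of lower and 14.3% of all windows. Beyond 4-fold, 60.2% of 974 higher genes held the core and 26.7% held at least 2. The longer form TTGACC, which overlaps the core, was in 16.7% of higher, 9.47% of lower and 12.2% of all windows. Site II (TGGGCC), a motif known from genes of growth and ribosomes, was in 7.48% of higher, 6.36% of lower and 16.5% of all windows. The G-box (CACGTG) lay near the background at 7.23% of higher, 7.10% of lower and 7.29% of all windows, and the GCC-box (GCCGCC) was in 2.38% of higher, 0.814% of lower and 2.02% of all. A match describes letters in a window and not a bound site.

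WRKY factors themselves numbered 29 higher and 2 lower among 51 measured, with a median log2 ratio of 1.32. WRKY9 had counts of 566 (explant), 0 (2-day control) and 0 (T0) and was at least 179-fold higher. WRKY31 had 1700 counts in the explant against 13 in the 2-day control, with 0 at T0, and was 124-fold higher (95% interval 72.4 to 234). WRKY72 had counts of 956 (explant), 11 (2-day control) and 0 (T0) and was 82.6-fold higher. None of these had a count at T0. WRKY13 was one of the 2 exceptions, with 5 counts in the explant against 76 in the 2-day control, with 51 at T0, and the other was WRKY70. Several WRKY genes reported as working in defence were higher as well, among them WRKY33, WRKY29, WRKY8 and WRKY75.

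Other families of transcription factors divided by type. NAC factors counted 15 higher and 0 lower of 57 (median log2 ratio 0.76), MYB factors 22 and 6 of 71, and AP2/ERF factors 24 and 8 of 90. Basic helix-loop-helix factors leaned down with 12 higher and 20 lower of 96, and homeobox factors with 8 and 12 of 70. NAC003 had counts of 580 (explant), 33 (2-day control) and 22 (T0) and was 16.7-fold higher. NAC047 had 2126 counts in the explant against 252 in the 2-day control, with 48 at T0, and was 8.01-fold higher. MYB49 had 458 counts in the explant against 2 in the 2-day control, with 0 at T0, and was 218-fold higher (95% interval 59.9 to 1802). MYB16, which promotes cuticle formation, had 283 counts in the explant against 2219 in the 2-day control, with 1342 at T0, and was 8.25-fold lower, so it was lowest in the explant. ERF53 had counts of 1216 (explant), 12 (2-day control) and 250 (T0) and was 96.3-fold higher. WRI4, an activator of fatty acid and wax genes, had 175 counts in the explant against 2460 in the 2-day control, with 6038 at T0, and was 14.8-fold lower, lowest in the explant and highest at T0. TGA9 and TGA7, of the bZIP family, were 56.2-fold higher and 3.27-fold higher. BZIP61 had counts of 232 (explant), 4270 (2-day control) and 7997 (T0) and was 19.4-fold lower, and BZIP34 was 9.34-fold lower.

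Dehydration and cold proteins were more often higher than lower, with 17 higher and 4 lower of 46 (median log2 ratio 0.95). T0 changes the picture for many. CBF1, a master regulator of cold acclimation, had 155 counts in the explant against 18 in the 2-day control, with 2032 at T0, and was 8.18-fold higher, yet T0 was the highest library. LTI78 had counts of 9050 (explant), 1292 (2-day control) and 50107 (T0) and was 6.65-fold higher. LTI30 had 149 counts in the explant against 31 in the 2-day control, with 3102 at T0, and was 4.57-fold higher. Both were again highest at T0. ERD10 with counts of 11061 (explant), 4267 (2-day control) and 43021 (T0) was 2.46-fold higher. The protective protein LEA7 had 240 counts in the explant against 8 in the 2-day control, with 11 at T0, and was 28.5-fold higher, with the explant highest. COR15B had counts of 906 (explant), 3319 (2-day control) and 12039 (T0) and was 3.86-fold lower, lowest in the explant.

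Iron genes were divided between uptake, chelation and deficiency signalling. Of 33 measured, 12 were higher and 13 lower, a share above the background in both directions, and the median log2 ratio was 0.40. On the side of citrate, coumarins and nicotianamine, which carry or chelate iron, most named genes were higher. FRD3, a citrate exporter, had 1882 counts in the explant against 17 in the 2-day control, with 0 at T0, and was 105-fold higher (95% interval 65.5 to 181). ABCG37, an exporter of phenolics that mobilise iron, had 11711 counts in the explant against 227 in the 2-day control, with 71 at T0, and was 49.0-fold higher (95% interval 43.0 to 56.1). NAS1, a nicotianamine synthase, had 9508 counts in the explant against 215 in the 2-day control, with 8 at T0, and was 42.0-fold higher (95% interval 36.7 to 48.3). All 3 were lowest at T0. NAS2 had counts of 67 (explant), 0 (2-day control) and 0 (T0) and was at least 21.2-fold higher. NAS3 had 803 counts in the explant against 76 in the 2-day control, with 17 at T0, and was 10.0-fold higher. The ferritins FER1 and FER4, which store iron, were 3.32-fold higher and 2.26-fold higher, with FER1 at counts of 7603 (explant), 2176 (2-day control) and 7290 (T0). NRAMP3, which releases iron from the vacuole, had 2737 counts in the explant against 322 in the 2-day control, with 596 at T0, and was 8.07-fold higher.

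Several genes known from iron-deficient leaves were lower. BTS, a ubiquitin ligase that restrains the deficiency response, had 5000 counts in the explant against 19706 in the 2-day control, with 8403 at T0, and was 4.15-fold lower (95% interval 4.02 to 4.28). PYE, a regulator, had 659 counts in the explant against 2025 in the 2-day control, with 467 at T0, and was 3.23-fold lower. OPT3, which loads iron into phloem, had counts of 6849 (explant), 19879 (2-day control) and 4963 (T0) and was 3.06-fold lower. The 2-day control was the highest library for each. ZIF1, a vacuolar nicotianamine transporter, had 885 counts in the explant against 6631 in the 2-day control, with 5752 at T0, and was 7.89-fold lower (95% interval 7.35 to 8.47). NAS4 had counts of 90 (explant), 633 (2-day control) and 194 (T0) and was 7.40-fold lower, unlike the other 3 nicotianamine synthases. The ferric reductases FRO3, FRO6 and FRO7 were 3.86-fold lower, 4.72-fold lower and 2.63-fold lower. IRT1, the root iron transporter, had 8 counts in the explant but 0 in both controls and did not reach the filter.

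Genes of nitrate and ammonium use counted 13 higher and 1 lower of 38 (median log2 ratio 0.74). Their summed share of counts was 1.46% in the explant against 0.959% in the 2-day control, with 0.940% at T0. WR3, a nitrate transport protein known to respond to wounds, had 5245 counts in the explant against 218 in the 2-day control, with 127 at T0, and was 22.9-fold higher (95% interval 20 to 26.3). NRT1.8, which takes nitrate out of xylem sap, had counts of 2244 (explant), 54 (2-day control) and 26 (T0) and was 39.5-fold higher. NRT1.5, which loads it into xylem, had 2005 counts in the explant against 183 in the 2-day control, with 77 at T0, and was 10.4-fold higher. The explant was highest for all 3. ASN2, an asparagine synthetase, had counts of 65112 (explant), 21545 (2-day control) and 8944 (T0) and was 2.87-fold higher. GDH2, a glutamate dehydrogenase, had 15166 counts in the explant against 3858 in the 2-day control, with 16725 at T0, and was 3.73-fold higher, while T0 held more counts still. NIA1, a nitrate reductase, was 2.71-fold higher, with counts of 41568 (explant), 14588 (2-day control) and 33064 (T0). The ammonium transporters AMT1;3 and AMT1;2 differed in direction, at least 23.7-fold higher and 2.45-fold lower.

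Transporters of other nutrients included large single changes. Phosphate starvation genes counted 7 higher and 3 lower of 24. PHO1, which loads phosphate into xylem, had 542 counts in the explant against 103 in the 2-day control, with 128 at T0, and was 5.0-fold higher. MGD2, a galactolipid synthase of phosphate shortage, had counts of 140 (explant), 868 (2-day control) and 244 (T0) and was 6.53-fold lower. Of 30 sulfate genes 4 were higher and 4 lower. SULTR1;2, a sulfate importer, had 7249 counts in the explant against 738 in the 2-day control, with 128 at T0, and was 9.33-fold higher. ATSDI1, a marker of sulfur shortage, had counts of 44 (explant), 693 (2-day control) and 12 (T0) and was 16.6-fold lower, highest in the 2-day control. Copper and zinc genes counted 9 higher and 2 lower of 34, with ZIP2, a zinc and manganese transporter, at 2909 counts in the explant against 102 in the 2-day control, with 19 at T0 and 27.1-fold higher. HA2, the main plasma membrane proton pump of roots, had 62369 counts in the explant against 18804 in the 2-day control, with 4890 at T0, and was 3.15-fold higher (95% interval 3.1 to 3.20), lowest at T0.

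Amino acid carriers were higher in several families. LHT1, a broad importer, had 13066 counts in the explant against 1225 in the 2-day control, with 252 at T0, and was 10.1-fold higher. AAP3 had counts of 4077 (explant), 573 (2-day control) and 43 (T0) and was 6.76-fold higher. AAP2, a xylem to phloem carrier, had 634 counts in the explant against 4474 in the 2-day control, with 3432 at T0, and was 7.43-fold lower. Amino acid transporters counted 5 higher and 2 lower of 19 (median log2 ratio 0.87), and UMAMIT exporters 10 and 3 of 37. UMAMIT29 had counts of 799 (explant), 11 (2-day control) and 1 (T0) and was 69.0-fold higher. SIAR1 had 2398 counts in the explant against 56 in the 2-day control, with 147 at T0, and was 40.7-fold higher.

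Enzymes that break down sugar and feed the citrate cycle held more higher members than the background, in lists drawn up after values were seen. Of 55 genes of glycolysis and the pentose phosphate pathway 19 were higher and 0 lower (median log2 ratio 0.53), and of 51 genes of the citrate cycle and malate 15 were higher and 1 lower (median 0.74). The first held 1.62% of counts in the explant against 1.24% in the 2-day control, with 1.11% at T0, and the second 1.14% in the explant against 0.707% in the 2-day control, with 0.666% at T0. Enzymes that make NADPH in the plastid and cytosol were among those higher. G6PD3, a plastid glucose 6-phosphate dehydrogenase, had 11864 counts in the explant against 862 in the 2-day control, with 264 at T0, and was 13.1-fold higher (95% interval 12.2 to 14). G6PD2 and G6PD6 were 4.81-fold higher and 4.36-fold higher. AT5G41670, a 6-phosphogluconate dehydrogenase, had 28179 counts in the explant against 4224 in the 2-day control, with 2984 at T0, and was 6.34-fold higher. The transaldolase TRA2 had 20953 counts in the explant against 1785 in the 2-day control, with 904 at T0, and was 11.2-fold higher (95% interval 10.6 to 11.7). All were highest in the explant and lowest at T0.

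In lower glycolysis, forms found in plastids of non-green cells had large ratios. ENO1, a plastid enolase, had 5528 counts in the explant against 482 in the 2-day control, with 254 at T0, and was 10.9-fold higher. GAPCP-1, a plastid glyceraldehyde phosphate dehydrogenase, had counts of 2956 (explant), 213 (2-day control) and 115 (T0) and was 13.2-fold higher. The cytosolic counterparts had smaller ratios. LOS2, the cytosolic enolase, had 53255 counts in the explant against 23058 in the 2-day control, with 13443 at T0, and was 2.19-fold higher. GAPC2 had counts of 60831 (explant), 26812 (2-day control) and 20739 (T0) and was 2.16-fold higher. Per length LOS2 stood at 479 CPM per kb in the explant against 219 in the 2-day control, with 160.3 at T0, and ENO1 at 55.9 CPM per kb in the explant against 5.13 in the 2-day control, with 3.40 at T0, so the cytosolic form had the higher level in every library. PPC3, a phosphoenolpyruvate carboxylase known from roots, had 3451 counts in the explant against 230 in the 2-day control, with 349 at T0, and was 14.3-fold higher. PMDH2, a peroxisomal malate dehydrogenase, was the lower member, with counts of 21597 (explant), 44176 (2-day control) and 44599 (T0).

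Sugar genes themselves were divided, with 9 higher and 11 lower of 58. ATBFRUCT1, a cell wall invertase, had 11674 counts in the explant against 1236 in the 2-day control, with 785 at T0, and was 8.97-fold higher. ATBETAFRUCT4, a vacuolar invertase, had counts of 1690 (explant), 8037 (2-day control) and 9179 (T0) and was 5.01-fold lower. STP1, a hexose importer, had 3050 counts in the explant against 23143 in the 2-day control, with 66497 at T0, and was 7.99-fold lower. SWEET16 had counts of 30 (explant), 289 (2-day control) and 643 (T0) and was 10.1-fold lower. Both were highest at T0. TPPB, a trehalose phosphatase, was 15.8-fold higher and TPS8 was 4.24-fold lower. Genes known from sugar starvation were also divided: DIN10 had 16145 counts in the explant against 53691 in the 2-day control, with 100955 at T0, and was 3.50-fold lower. DIN11 had counts of 5470 (explant), 92 (2-day control) and 53 (T0) and was 56.5-fold higher. EDA9, an enzyme of plastid serine synthesis, had 13007 counts in the explant against 4639 in the 2-day control, with 1110 at T0, and was 2.66-fold higher. PGDH, of the same step, had counts of 9273 (explant), 3319 (2-day control) and 62 (T0) and was 2.65-fold higher.

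Several groups tied to leaf growth held more lower members than the background. Brassinosteroid genes counted 1 higher and 12 lower of 30 (median log2 ratio -0.83), the largest lower share among the hormone groups drawn. BEN1, linked to brassinosteroid inactivation, had 24 counts in the explant against 724 in the 2-day control, with 996 at T0, and was 31.8-fold lower (95% interval 21.2 to 49.9). BEE3, an early response gene, had counts of 123 (explant), 1556 (2-day control) and 611 (T0) and was 13.3-fold lower. CPD, an enzyme of synthesis, had 5733 counts in the explant against 15591 in the 2-day control, with 18847 at T0, and was 2.86-fold lower. BRI1, the receptor, had counts of 6073 (explant), 12782 (2-day control) and 15184 (T0) and was 2.22-fold lower. The explant was lowest in each case. IBH1, a growth repressor, was the one higher member, with 1478 counts in the explant against 616 in the 2-day control, with 438 at T0.

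Gibberellin genes counted 3 higher and 7 lower of 25 (median log2 ratio -0.43). GA3OX1, which makes active gibberellin, had counts of 100 (explant), 429 (2-day control) and 303 (T0) and was 4.52-fold lower. GA1, the first enzyme of synthesis, had 0 counts in the explant against 21 in the 2-day control, with 65 at T0, and was at least 7.37-fold lower. GA2OX6, which inactivates gibberellin, had counts of 759 (explant), 66 (2-day control) and 910 (T0) and was 10.9-fold higher, while T0 was higher still in counts. The repressor GAI had 1905 counts in the explant against 5840 in the 2-day control, with 5954 at T0, and was 3.23-fold lower, and RGL2, another repressor of the same family, was 3.56-fold higher. The receptor GID1B had counts of 1917 (explant), 569 (2-day control) and 399 (T0) and was 3.20-fold higher.

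Light signalling genes counted 4 higher and 11 lower of 43 (median log2 ratio -0.25). HFR1, a factor of shade and far-red responses, had 25 counts in the explant against 293 in the 2-day control, with 1053 at T0, and was 12.3-fold lower. The blue light receptor CRY1 had counts of 6295 (explant), 15548 (2-day control) and 21555 (T0) and was 2.6-fold lower. PIF4, a growth-promoting factor, had 207 counts in the explant against 513 in the 2-day control, with 13045 at T0, and was 2.61-fold lower, with T0 far above both. HYH, which promotes light responses, went the other way with counts of 1436 (explant), 359 (2-day control) and 54 (T0) and was 3.80-fold higher. SAUR genes, small growth genes, counted 4 higher and 12 lower of 57 (median -0.54), and genes of leaf polarity and growth 1 and 8 of 34 (median -0.45). TCP17 had 74 counts in the explant against 420 in the 2-day control, with 107 at T0, and was 5.97-fold lower. KAN, which sets the lower leaf side, had counts of 802 (explant), 2309 (2-day control) and 1388 (T0) and was 3.03-fold lower.

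Wall-loosening and wall-building genes followed. Xyloglucan endotransglucosylases, which cut and rejoin xyloglucan, counted 5 higher and 11 lower of 25 (median log2 ratio -0.85), and held 0.0773% of counts in the explant against 0.207% in the 2-day control, with 0.183% at T0. XTH4 had 5913 counts in the explant against 30978 in the 2-day control, with 17483 at T0, and was 5.52-fold lower. XTH16 had counts of 417 (explant), 4117 (2-day control) and 1196 (T0) and was 10.4-fold lower. XTH15 had 93 counts in the explant against 1264 in the 2-day control, with 6374 at T0, and was 14.3-fold lower. Against these, XTH3 had 105 counts in the explant against 2 in the 2-day control, with 0 at T0, and was 49.9-fold higher (95% interval 13.5 to 417), and XTH10 was 7.54-fold higher. Expansins counted 1 higher and 7 lower of 21 (median -0.72), with EXPA8 at 79 counts in the explant against 792 in the 2-day control, with 1938 at T0 and 10.6-fold lower. EXLA1 had counts of 941 (explant), 4308 (2-day control) and 11517 (T0) and was 4.82-fold lower, highest at T0.

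Arabinogalactan and fasciclin-like proteins, which coat the outer face of the cell, counted 6 higher and 18 lower of 45 (median log2 ratio -0.89). Their share of counts was 0.107% in the explant against 0.304% in the 2-day control, with 0.207% at T0. AGP7 had 160 counts in the explant against 2893 in the 2-day control, with 839 at T0, and was 19.0-fold lower. FLA9 had 1557 counts in the explant against 13891 in the 2-day control, with 6406 at T0, and was 9.39-fold lower (95% interval 8.91 to 9.90). FLA2 had 2320 counts in the explant against 11264 in the 2-day control, with 5874 at T0, and was 5.11-fold lower. The 2-day control was the highest library for all 3. Cellulose synthase and related genes counted 1 higher and 7 lower of 33, with CSLA10 at counts of 302 (explant), 2798 (2-day control) and 30 (T0) and 9.75-fold lower. Tubulins counted 0 higher and 4 lower of 16, with TUB8 at 1099 counts in the explant against 4615 in the 2-day control, with 4888 at T0. Pectin methylesterases and inhibitors were split, 27 higher and 24 lower of 108.

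Several water channels with many counts were lower, although the family as a whole was split at 5 higher and 5 lower of 25. DELTA-TIP, a vacuolar channel, had 4266 counts in the explant against 37024 in the 2-day control, with 45184 at T0, and was 9.14-fold lower (95% interval 8.85 to 9.43). TIP2 had 9420 counts in the explant against 41620 in the 2-day control, with 54018 at T0, and was 4.65-fold lower. PIP3, in the plasma membrane, had counts of 4464 (explant), 28730 (2-day control) and 24825 (T0) and was 6.78-fold lower. The family's share of counts was 0.272% in the explant against 0.431% in the 2-day control, with 0.479% at T0. Other members were higher: NIP5;1, a boric acid channel, had 952 counts in the explant against 41 in the 2-day control, with 10 at T0, and was 22.1-fold higher. TIP4;1 had 174 counts in the explant against 2 in the 2-day control, with 0 at T0, and was 82.6-fold higher (95% interval 22.5 to 688).

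Called genes of DNA methylation, repair and chromatin copying were more often higher than lower. Chromatin and DNA methylation genes counted 6 higher and 3 lower of 36. MET1, which copies CG methylation, had 5264 counts in the explant against 2043 in the 2-day control, with 1072 at T0, and was 2.45-fold higher. CMT3, for CHG methylation, had counts of 2002 (explant), 800 (2-day control) and 377 (T0) and was 2.38-fold higher. VIM1, a partner of MET1, had 1924 counts in the explant against 543 in the 2-day control, with 255 at T0, and was 3.37-fold higher. All 3 were lowest at T0. CMT2, which acts in heterochromatin, had counts of 978 (explant), 2439 (2-day control) and 1495 (T0) and was 2.63-fold lower, and the demethylase DML1 was 2.28-fold lower. DNA damage genes counted 5 higher and 0 lower of 25 (median log2 ratio 0.45). BRCA1 had 902 counts in the explant against 241 in the 2-day control, with 135 at T0, and was 3.56-fold higher, and WEE1 was 3.72-fold higher. Histones counted 9 higher and 2 lower of 49 (median 0.57). Replication genes counted 3 higher and 0 lower of 39, a share below the background of 10.0%, while their median log2 ratio was 0.58.

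Genes of barrier polymers were divided. Suberin and cutin genes counted 7 higher and 4 lower of 27 (median log2 ratio -0.32). Suberin genes known from roots and wounds, CYP86B1, GPAT5 and MYB41, had 38, 34 and 34 counts in the explant but 0 in both controls, and they were at least 12.0-fold higher, at least 10.8-fold higher and at least 10.8-fold higher. ABCG6, a suberin exporter, had counts of 65 (explant), 0 (2-day control) and 14 (T0). GPAT8 and CYP86A8, which act in cutin synthesis, were among the 4 lower genes. GPAT8 had 789 counts in the explant against 3145 in the 2-day control, with 4385 at T0, and was 4.20-fold lower. CYP86A8 had counts of 623 (explant), 2284 (2-day control) and 1842 (T0) and was 3.86-fold lower. These suberin counts are low, and none of the genes had over 65 counts in the explant. CYP86B1, GPAT5 and MYB41 passed the filter through the explant alone, so as measured genes they could only be called higher.

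Detoxification families held more higher than lower members. Glutathione transferases counted 20 higher and 0 lower of 50 (median log2 ratio 0.93), UDP-glycosyltransferases 23 and 6 of 102, cytochrome P450s 36 and 19 of 139, ABC transporters 18 and 6 of 103 and MATE transporters 10 and 2 of 42. GSTU25 had 487 counts in the explant against 7 in the 2-day control, with 5 at T0, and was 66.1-fold higher. CYP72A14 had 1983 counts in the explant against 12 in the 2-day control, with 7 at T0, and was 157-fold higher (95% interval 89.7 to 304). CYP81F2, an enzyme of indole glucosinolates, had 2920 counts in the explant against 106 in the 2-day control, with 1243 at T0, and was 26.2-fold higher. CYP81D11 was an exception, with counts of 459 (explant), 5348 (2-day control) and 283 (T0), and was 12.3-fold lower. UGT72E2, which glucosylates lignin precursors, had 585 counts in the explant against 3 in the 2-day control, with 0 at T0, and was 185-fold higher (95% interval 63.1 to 901). Among blue copper proteins, 8 of 29 were higher and 3 lower, with UCC2 at counts of 5511 (explant), 29 (2-day control) and 44 (T0) and 181-fold higher.

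Several large housekeeping groups were called less often than the background, but their medians were not all at 0. Cytosolic ribosomal proteins counted 3 higher and 0 lower of 166 with a median log2 ratio of 0.50, and held 2.07% of counts in the explant against 1.54% in the 2-day control, with 1.23% at T0. Proteasome subunits counted 0 higher and 1 lower of 53 (median 0.38). Pentatricopeptide repeat proteins, which process organelle RNA, counted 2 and 7 of 290 (median -0.06), F-box proteins 6 and 12 of 195, autophagy genes 0 and 1 of 26 and chlorophyll genes 1 and 0 of 31. By contrast, genes of the unfolded protein response counted 4 higher and 0 lower of 21 (median 0.73), with the folding enzyme PDIL1-1 at 13205 counts in the explant against 4194 in the 2-day control, with 4232 at T0 and 2.99-fold higher. Embryo and seed regulators had 0 of 10 called.

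Of 33 measured genes of flowering time and floral identity, 6 were higher and 4 were lower (median log2 ratio -0.20). SEP3, AP1, AP3 and AG, floral identity factors of the MADS-box family, were among the higher ones. All of these also belong to the set of flower, anther and pollen genes described below. AP1, AP3 and AG passed the filter only with their explant counts. FT, the mobile flowering signal, had counts of 9 (explant), 74 (2-day control) and 32 (T0) and was 8.66-fold lower. FD, its partner, had 14 counts in the explant against 430 in the 2-day control, with 306 at T0, and was 32.3-fold lower, so the explant was lowest, and CO, which acts before FT, was 2.59-fold lower.

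Precursors of microRNAs were lower more often than the 6.74% of all compared genes. These loci give rise to hairpins from which a short mature RNA is cut. Bases 2 to 8 of that RNA are called the seed here and serve only to group the sequences. Of 38 measured 1 was higher and 12 were lower, and the median log2 ratio was -1.47. For each called precursor apart from MIR822 and MIR825, 1 mature form is printed from RefSeq on TAIR10.1, and the other arm, where one is listed, is not shown. The sequences run 5' to 3' with the seed in capitals. They show that 3 pairs of called precursors share a seed.
ath-miR156a-5p, chr2:10676534-10676553, minus strand: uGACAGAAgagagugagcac
ath-miR156c-5p, chr4:15415491-15415510, minus strand: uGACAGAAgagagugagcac
ath-miR157c-5p, chr3:6244673-6244693, minus strand: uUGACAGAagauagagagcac
ath-miR160c-5p, chr5:19009158-19009178, minus strand: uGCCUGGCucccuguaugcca
ath-miR162a-3p, chr5:2634936-2634956, minus strand: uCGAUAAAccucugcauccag
ath-miR167a-5p, chr3:8108090-8108110, plus strand: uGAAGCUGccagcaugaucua
ath-miR167d, chr1:11137556-11137577, plus strand: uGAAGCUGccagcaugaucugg
ath-miR169m, chr3:9878318-9878338, minus strand: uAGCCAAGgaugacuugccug
ath-miR171b-3p, chr1:3961367-3961387, minus strand: uUGAGCCGugccaauaucacg
ath-miR171c-3p, chr1:22930095-22930115, minus strand: uUGAGCCGugccaauaucacg
ath-miR163, chr1:24884359-24884382, plus strand: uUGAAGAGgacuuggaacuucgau

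The seed GACAGAA is common to miR156a and miR156c, which target SPL factors of phase change, and miR157c carries the same letters shifted by a base. MIR156a had 3 counts in the explant against 43 in the 2-day control, with 28 at T0, and was 15.1-fold lower (95% interval 4.83 to 76.0). MIR156c had 39 counts in the explant against 233 in the 2-day control, with 119 at T0, and was 6.29-fold lower. MIR157c had counts of 87 (explant), 295 (2-day control) and 38 (T0) and was 3.57-fold lower. The 2-day control was highest for all 3. The seed GAAGCUG belongs to miR167a and miR167d, which target auxin response factors. MIR167a had 63 counts in the explant against 459 in the 2-day control, with 131 at T0, and was 7.67-fold lower (95% interval 5.88 to 10.1). MIR167d had 264 counts in the explant against 1891 in the 2-day control, with 2188 at T0, and was 7.54-fold lower (95% interval 6.63 to 8.61), with T0 the highest library. MIR160c, which also targets auxin response factors, had 11 counts in the explant against 52 in the 2-day control, with 21 at T0, and was 4.98-fold lower. The seed UGAGCCG is shared by miR171b and miR171c, which target HAM factors. MIR171b had counts of 8 (explant), 49 (2-day control) and 71 (T0) and was 6.45-fold lower. MIR171c had 2 counts in the explant against 26 in the 2-day control, with 7 at T0, and was 13.7-fold lower (95% interval 3.43 to 119). MIR162a, whose product targets DCL1, had counts of 207 (explant), 620 (2-day control) and 241 (T0) and was 3.15-fold lower. MIR169m had 0 counts in the explant against 20 in the 2-day control, with 20 at T0, and was at least 7.02-fold lower. MIR822 and MIR825 were 4.04-fold lower and 4.21-fold lower, but MIR825 lies wholly within another gene model. MIR163 was the single higher precursor, with 235 counts in the explant against 35 in the 2-day control, with 26 at T0, and was 6.38-fold higher (95% interval 4.46 to 9.38).

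**Figure D4:**
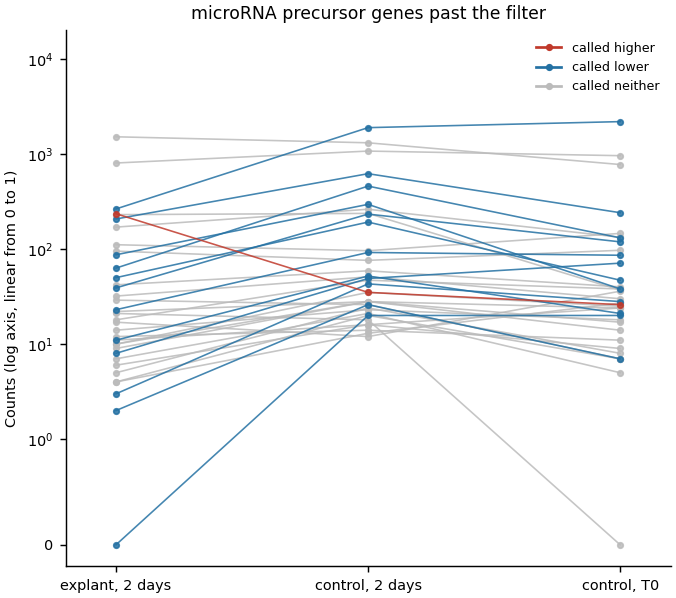
Counts of each measured microRNA precursor in the explant, the 2-day control and T0, joined by lines, on a log axis that is linear from 0 to 1. Blue lines are the 12 precursors called lower against the 2-day control, the red line is MIR163, called higher, and grey lines were called neither.

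Reads on a precursor do not measure the mature RNA, and the library kit, which decides how hairpins are sampled, is not given in the sources used here. Known targets of the called families, listed after values were seen, did not move as a block. Of 29 listed, 27 passed the filter, 2 were higher, 4 were lower and 21 were neither, with ratios from 0.567 to 1.88. SPL4 had 902 counts in the explant against 378 in the 2-day control, with 270 at T0, and was 2.27-fold higher. SPL2 had counts of 1631 (explant), 3635 (2-day control) and 1582 (T0) and was 2.35-fold lower. HAM3, a target of miR171, had 1257 counts in the explant against 3203 in the 2-day control, with 1655 at T0, and was 2.68-fold lower. For miR163, the methyltransferases PXMT1 and FAMT went opposite ways. PXMT1 had counts of 206 (explant), 0 (2-day control) and 0 (T0) and was at least 65.2-fold higher. FAMT had 300 counts in the explant against 848 in the 2-day control, with 834 at T0, and was 2.98-fold lower. Genes of the small RNA machinery counted 2 higher and 0 lower of 23. AGO7 had counts of 1249 (explant), 374 (2-day control) and 66 (T0) and was 3.17-fold higher. DCL1 was called neither, at 3678 counts in the explant against 5212 in the 2-day control, with 3260 at T0.

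Genes known from flowers, anthers and pollen appeared at low counts in the explant. The set of 46 was put together after several were seen among the higher genes, so its counts describe it and test nothing. Their summed counts were 3779 in the explant against 1389 in the 2-day control, with 1182 at T0, or 75.3 CPM in the explant against 29.1 in the 2-day control, with 31.2 at T0. Of the 46, 0 were without a count in the explant against 13 in the 2-day control, with 25 at T0, and 39 were highest in the explant. The median count was 36.5 in the explant against 2.00 in the 2-day control, with 0 at T0. Of the 30 that passed the filter 21 were called higher and 0 lower, beside 10.0% and 6.74% of all compared genes. RALFL8, PPME1, EXL6, VGDH1 and AP1 had counts in the explant alone. They passed the filter through that library and could only be called higher. Apart from SEP3 and AGP40, the other genes called higher also had fewer than 30 counts over both controls together. They too passed the filter only with their explant counts, so the filter set most of this split.

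Genes of the pollen coat and tapetum, the anther layer that feeds pollen, were among them. GRP19, a pollen coat protein, had 429 counts in the explant against 5 in the 2-day control, with 1 at T0, and GRP17, another one, had counts of 210 (explant), 10 (2-day control) and 0 (T0). LTP12, known from the tapetum, had 107 counts in the explant against 2 in the 2-day control, with 0 at T0, and was 50.8-fold higher (95% interval 13.7 to 425). The pollen peptide RALFL8 had counts of 149 (explant), 0 (2-day control) and 0 (T0) and was at least 47.2-fold higher. VGD1, a pollen tube pectin methylesterase, had 124 counts in the explant against 3 in the 2-day control, with 0 at T0, and was 39.3-fold higher (95% interval 13.1 to 193). Floral organ identity factors were present as well. AP3, of petals and stamens, had 49 counts in the explant against 3 in the 2-day control, with 0 at T0, and was 15.5-fold higher (95% interval 5.01 to 77.8). AG, of stamens and carpels, had 42 counts in the explant against 3 in the 2-day control, with 8 at T0, and was 13.3-fold higher (95% interval 4.25 to 67.1). AP1 had counts of 31 (explant), 0 (2-day control) and 0 (T0) and was at least 9.82-fold higher. SEP3 had 316 counts in the explant against 44 in the 2-day control, with 306 at T0, and was 6.82-fold higher, but T0 held a like count. LAP6 and ANX1, the members with most counts in the 2-day control, were not called, with LAP6 at 473 counts in the explant against 565 in the 2-day control, with 276 at T0. PPME1 has a near-identical copy in AT5G07410, so their counts may be shared. Members of the set also sit in the groups above of flowering time and floral identity, pectin, arabinogalactan and lipid transfer genes. The origin of these reads was not tested.

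**Figure D5:**
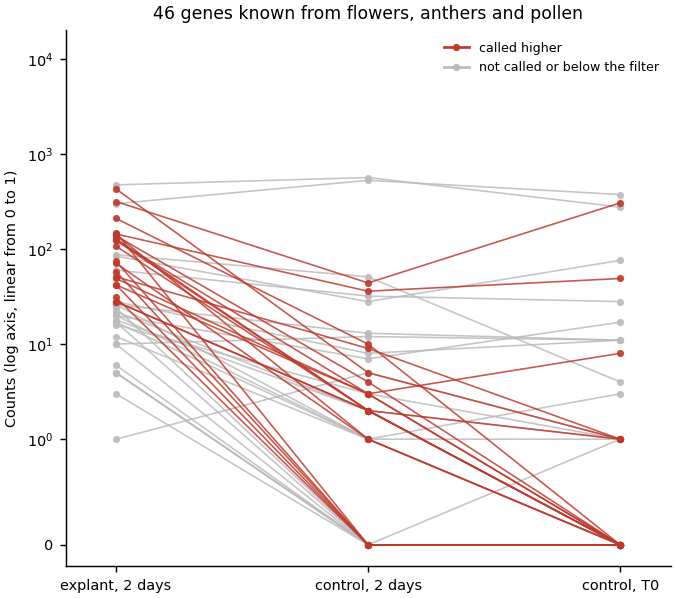
Counts of the 46 genes known from flowers, anthers and pollen in the explant, the 2-day control and T0, joined by lines, on a log axis that is linear from 0 to 1. Red lines are the 21 genes called higher against the 2-day control and grey lines those not called or below the filter; 39 of the 46 are highest in the explant.

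Called genes also lay side by side on the chromosomes. Runs of at least 3 consecutive measured protein-coding genes with the same call numbered 64 for higher genes, holding 223 genes, and 15 for lower genes, holding 48. The longest had 8 and 5 genes. Of the 19500 protein-coding genes compared, 10.2% were higher and 6.55% lower, and the number of runs expected from these shares alone was not worked out. Neighbours are often duplicates and can share reads or regulation, which was not tested. A run of 6 genes of 1 description from AT1G13480 to AT1G13550 held AT1G13510, with 37 counts in the explant and none in the 2-day control, and its other members had ratios of 22.2 to 154. A run of 6 genes from AT1G65481 to AT1G65510 had ratios of 2.85 to 19.5. Glycosyltransferases from AT3G46650 to AT3G46720 formed a run of 6 with ratios of 2.49 to 88.8. The nitrilases NIT2, NIT1 and NIT3, enzymes that hydrolyse nitriles, spanned 2.06 to 69.4. The pollen coat genes GRP14 to GRP20 formed a run of 5, in which GRP16 had none in the 2-day control and the other members had ratios of 5.97 to 81.5. The longest lower run, from AT1G02610 to AT1G02660, had explant over control ratios of 0.0547 to 0.282.

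Measured by CPM gained or lost rather than by ratio, other genes led. Among the genes called higher, extensins aside, AT4G12490 gained 1425 CPM over the 2-day control, AT5G64120 gained 1004 CPM and NIR1, nitrite reductase, gained 949.6 CPM. HA2 gained 848 CPM and ASN2 gained 845 CPM. The greatest fall among the genes called lower was that of BGLU18, a beta-glucosidase of endoplasmic reticulum bodies that frees abscisic acid from its glucose ester. It had counts of 14411 (explant), 66511 (2-day control) and 5810 (T0) and was 4.86-fold lower, and its level fell by 1107 CPM, with the 2-day control the highest library. The lipid transfer protein AT2G10940 fell by 901 CPM, the antenna protein gene LHB1B1 by 848 CPM, DIN10 by 804 CPM and PATL1, a membrane trafficking protein, by 784 CPM.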

How the data were processed

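The authors deposited whole-number read counts per gene, not normalized, from 1 library a group. The build TAIR10 and the tools HTSeq, FastQC and DESeq appear in the submitters' processing notes. No source used here gives the aligner, the kit or the strand setting, which makes counts of overlapping genes uncertain. TMM scaling (edgeR 4.0.16, R 4.3.3) gave factors of 1.07 for the explant, 1.06 for the 2-day control and 0.879 for T0. Genes with at least 30 counts over the 3 libraries were compared. Each ratio has an exact Clopper-Pearson 95% interval from the split of counts between both libraries, and no model test was run. A log2 ratio adds 0.5 counts. Where a library had 0, the fold was set against a floor of 3 counts in that library, worth 0.0597 CPM in the explant against 0.0629 in the 2-day control, with 0.0791 at T0. Intervals and floors cover counting error only. PCR duplicates were not identified.

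Names came from RefSeq on TAIR10.1, which 20088 of the 20109 compared loci matched by locus tag. Of 1327 genes searched with blastn 2.17.0 at 95% identity over 100 bases, 32 had a near-identical stretch in a separate gene. The comparison, its 39 lists and its 64 families were chosen with earlier results of these data known, and 8 further groups after values were seen here. The genes named are called genes with the nearer interval bound farthest from 1, over all genes and within each of these lists and families. Called genes with the largest gains and losses in CPM were added. NAC1, CEP, extensin and root founder genes were passed over, which gives 597. Values are given in the text for a part of these, chosen for roles that are known. Further genes named or shown, such as PR1, DCL1 and the genes of the promoter windows, were chosen after their values were seen. Alternatives were DESeq2 1.42.0 size factors, total counts, TMM from the compared libraries, other filters, fold limits, intervals and prior counts, thinning, and dropping genes that overlap others. Tables and figures used pandas 2.3.3, scipy 1.17.1, numpy 2.4.6 and matplotlib 3.10.9 in Python 3.11.15.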

Additional observations from a re-analysis of the deposited data

How the results depend on the processing

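The number of calls followed the fold limit. With 1.5-fold in place of 2-fold, 3367 genes were called higher and 2692 lower, and with 4-fold 974 higher and 369 lower. Under the other alternatives the counts ranged from 1523 to 2319 higher and from 1047 to 1372 lower, and the lowest of 1047 came from dropping genes whose exons overlap another gene, an alternative chosen after seeing the data. The median log2 ratio of all genes was 0.02 under DESeq2 size factors and total counts, against -0.00 in the main setting and with TMM from the compared libraries. Shifts this small cannot turn a call beyond 2-fold around, and no called gene changed direction. Of the 597 genes named by the rule, 592 kept their call under DESeq2 size factors and under total counts, and 542 with the widest interval tried. Most of these were picked for bounds far from 1, so the numbers do not measure how stable the other calls are. Among 222 counts of list members, 4 moved by over 1.5 times under DESeq2 size factors and 4 under total counts. No paired analysis was possible because each group has 1 library and the labels carry no replicate numbers, and for the same reason no library could be left out. Depth limits the genes with few counts: a floor of 3 counts bounds every fold against an empty library.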
